A study of Mus musculus with 13 samples.

Results

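The RNA of round spermatids from shSLY males was compared with that of round spermatids from WT males, gene by gene, on the autosomes. Round spermatids are the haploid germ cells that have left meiosis and have not yet elongated. The comparison used the 3 arrays titled shSLY spermatid and the 4 arrays titled WT spermatid, of 13 Illumina mouse whole-genome BeadChip arrays in the series (shSLX1 and shSLX1shSLY spermatids make up the rest), with 1 array per spermatid preparation. shSLY males carried a transgene that expresses a short hairpin RNA against Sly transcripts, while WT males carried no transgene. All males had the MF1YRIII background and were young adults of about 8 weeks, and each preparation was a pool of testes that was separated by elutriation or by sedimentation under unit gravity. No source used here names the promoter of the hairpin.

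Sly is present in many copies on the long arm of the Y chromosome and is expressed in spermatids. Its protein is known to associate with the chromatin of the X and Y chromosomes after meiosis and to repress sex-linked genes, and Sly-deficient males produce sperm with abnormal heads. The autosomal genes described here lie outside the X and Y chromosomes. SLY protein is not confined to those, since the paper reports it at the autosomal Speer gene cluster in most WT round spermatids. The paper also reports Speer genes as up-regulated in shSLY spermatids, and they are among the genes described below. In round spermatids, genes for the acrosome, the flagellum and the compaction of the nucleus are transcribed at high levels and many of their mRNAs are stored for later translation.

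A probe was kept when its detection p-value, which compares its signal with the negative control beads of the same array, was under 0.05 on 3 or more of the 13 arrays. This left 20250 of 45281 probes and 14660 genes or unnamed probes, of which 10745 were autosomal genes. Levels are given as log2 of the background-corrected, quantile-normalised signal, and a gene is represented by its brightest kept probe. A gene was called higher or lower when the adjusted p of limma (Benjamini-Hochberg over all 14660) was under 0.05 and the fold change was over 1.5. Levels are compared between arrays for the same probe, never between genes.

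The arrays detected 17663 to 19057 probes in shSLY and 16110 to 18251 probes in WT. Correlations between array values were 0.976 to 0.995 among shSLY arrays, 0.973 to 0.991 between shSLY and WT arrays, and 0.987 to 0.996 among WT arrays. The signal of undetected probes separated the arrays into sets. It had a median of 54.3 and 55.8 on shSLY 1 and 2 and of 53.4 and 56.1 on WT 1 and 2, while shSLY 3 had a median of 71.7 and WT 3 and 4 had medians of 74.3 and 74.4. By these medians alone, shSLY 3 lies near WT 3 and 4. The sets used here come from clustering the 13 arrays by the correlation of this signal, cut at 3 sets. That placed shSLY 1 and 2 with WT 1 and 2, and shSLY 3 in another set than WT 3 and 4. With this cut, shSLY 1 and 2 and WT 1 and 2 form the only set that holds both genotypes. Their contrast is given beside that of the 7 arrays. Sly itself, measured by 1 probe, was at 10.39, 10.08 and 10.71 on shSLY arrays and at 10.19, 10.35, 9.86 and 9.85 on WT arrays (log2 fold change 0.33, limma adjusted p = 0.616). It turned to -0.03 in replicates 1 and 2 and to -0.13 with the array set as a block. Which of the many Sly copies this probe detects is unknown here, and its signal is therefore no check on the labels. The paper reports the Sly knockdown in shSLY round spermatids by real-time PCR, and no detectable SLY1 protein. It names non-coding Sly transcripts as the likely reason why transcript and protein levels differ.

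Round spermatid markers did not separate the genotypes. All 12 tested (of 14 chosen) were detected on every WT array, none was called, and their median log2 fold change was 0.04. Detection does not tell the cell type, since all 10 pachytene spermatocyte markers tested were also detected on every WT array. Markers of other cells moved with the arrays. The 3 hemoglobin genes tested had median levels, relative to the WT mean, of 2.29, 2.88 and 0.86 on shSLY 1 to 3, against 0.30, 2.23, -0.97 and -1.52 on WT 1 to 4, on the log2 scale. The 9 macrophage markers tested had medians of 0.40, 0.44 and 0.59 on shSLY arrays and of 0.06, 0.59, -0.42 and -0.39 on WT arrays. All 9 had a higher mean in shSLY (median log2 fold change 0.60 over the 7 arrays and 0.04 in replicates 1 and 2), and none was called. The defining genes of blood and macrophages were thus measurable on these arrays, and their part in the results below was not tested.

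**Figure D1:**
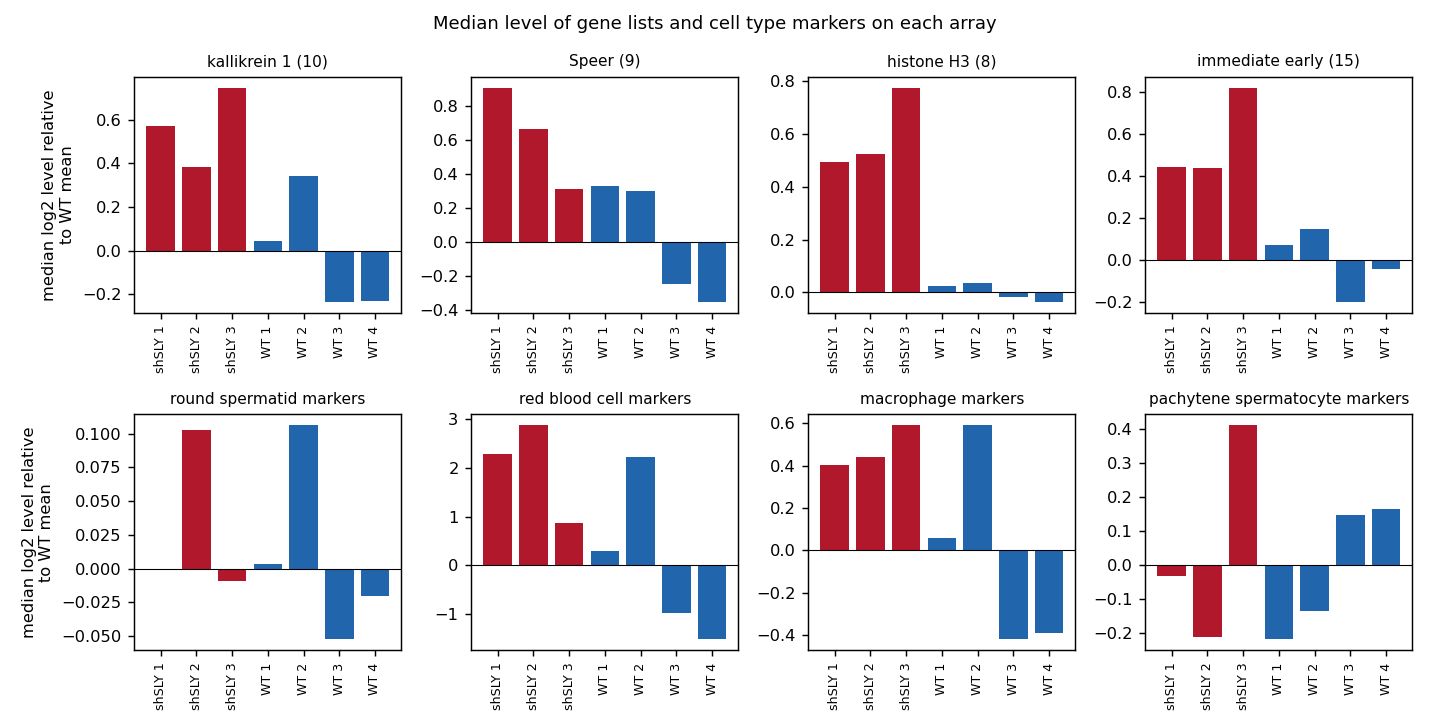
Median log2 level of 4 gene lists (upper row) and of the markers of 4 cell types (lower row) on each array, relative to the mean of the 4 WT arrays, with a scale of its own for each panel. The histone H3 list lies between 0.49 and 0.77 on the shSLY arrays and within 0.04 of zero on the WT arrays, while the red blood cell and macrophage markers of WT 2 lie within the range of, or level with, the shSLY arrays.

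Of the 10745 autosomal genes tested, 97 were called higher (0.903%) and 83 were called lower (0.772%) in shSLY, or 180 in either direction (1.68%). Of these, 28 rises and 16 falls were of 2-fold or more. The 97 rises had a median log2 fold change of 0.83 and a largest of 2.04, and the 83 falls had a median of -0.77 and a largest fall of 2.22. The shSLY and WT arrays did not overlap for 96 of the 97 (all but Recql4, which lost its call with the replicate block at a limma adjusted p of 0.0954) and for all 83, beside 6.89% and 8.99% of all autosomal genes tested. Between WT 1 and 2 and WT 3 and 4, which share a genotype, 379 autosomal genes were called at the same thresholds. In whole preparations such as these, more cells of a type and more RNA per cell cannot be told apart.

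shSLY 1 and 2 against WT 1 and 2 gave 37 genes called higher (0.344%) and 54 called lower (0.503%), or 91 in either direction (0.847%). All 97 rises and all 83 falls of the 7 arrays kept their direction in these 4 arrays, which are among the 7 and so are not independent of them. Of the 97 rises, 70 remained over 1.5-fold and 23 were called, while of the 83 falls 73 remained over 1.5-fold and 41 were called. The median log2 fold change of the rises was 0.72 in replicates 1 and 2 and 0.97 for shSLY 3 against WT 3 and 4, and that of the falls was -0.78 and -0.81. WT 1 and 2 both lay above WT 3 and 4 for 63 of the 97 rises and both below for 3, while for the falls these counts were 19 and 27. The median rise was thus smaller where the arrays share a set, and the median fall was of like size. No test was made of this difference.

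These counts moved with single arrays. They were 35 higher and 49 lower without WT 3, 30 and 46 without WT 4, 45 and 33 without shSLY 1, and 56 and 61 without shSLY 2. With the replicate number as a block, 37 were higher and 47 lower, and 34 and 42 of these were among the 97 and the 83. WT 4, the only array with its number, has no weight in that contrast. With the array set as a block, 87 were higher and 97 lower. Median scaling in place of quantile normalisation gave 26 higher and 54 lower, so that the share of rises was 32.5% in place of 53.9%. For 21 rises and 28 falls the call held with each of the 7 arrays left out in turn. They include Klk1b26, Klk1b5, Klk1, Klk1b9, Tmem86a, Tfr2, Cebpb, Zfp36, Btg4, Tnk1, Eppin, Lcn2, H3c1, H3c6 and Speer4cos among the rises, and Fndc3a, Agtr1a, Btrc, Rnf170, Rmc1, Npc1, Chaf1b, Esrrb, Ext1, Rpp21, Cdk15, Hsd3b4, Ufc1 and Rplp1 among the falls. For every other called gene at least 1 left-out array ended the call, and for Pex10, Socs6, Fbxo4 and Dtwd1, among others, each of the 7 did.

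**Figure D2:**
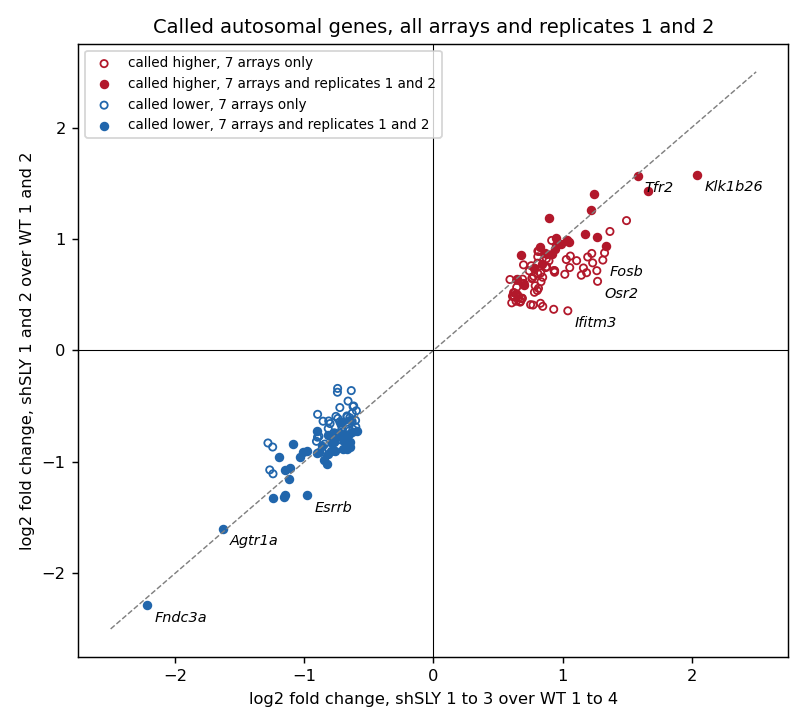
Log2 fold change of the 180 called autosomal genes, shSLY 1 to 3 over WT 1 to 4 on the horizontal axis and shSLY 1 and 2 over WT 1 and 2 on the vertical axis, with filled symbols for genes called in both and the dashed line marking equal values. Every gene keeps its side of zero, and the largest rises such as Klk1b26 lie below the line while Fndc3a and Agtr1a lie near it.

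The kallikrein 1 serine proteases held the called gene with the largest rise, Klk1b26. Kallikreins are secreted proteases that cut kininogens and growth factor precursors, and the mouse holds a cluster of closely related Klk1b genes beside Klk1 on chromosome 7. Of 10 members tested, 4 were called higher and none lower, beside 0.903% called higher over all autosomal genes tested. All 10 had a higher mean in shSLY, and the median log2 fold change was 0.55, against -0.02 over all autosomal genes tested. The called members were Klk1b26 (chr7:44012678-44016969, GRCm38.p6), Klk1b5, Klk1 and Klk1b9, within a cluster that runs from Klk1b8 at 43950666 to the end of Klk1 at 44229622. The members share much of their sequence, and the 120 bases of RefSeq (GRCm38.p6) before the annotated start of the called Klk1b genes, with Klk1b27 as the member that differed least, are shown for this reason (plus strand, capitals mark TTTAAA).
Klk1b26: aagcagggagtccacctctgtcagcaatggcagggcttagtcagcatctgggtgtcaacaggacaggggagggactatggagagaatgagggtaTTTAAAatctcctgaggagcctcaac
Klk1b5: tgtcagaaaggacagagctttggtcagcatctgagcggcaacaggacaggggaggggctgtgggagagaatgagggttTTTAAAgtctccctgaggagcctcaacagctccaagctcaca
Klk1b9: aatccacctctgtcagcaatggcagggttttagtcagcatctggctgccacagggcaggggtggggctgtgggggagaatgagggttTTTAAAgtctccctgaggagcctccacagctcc
Klk1b27: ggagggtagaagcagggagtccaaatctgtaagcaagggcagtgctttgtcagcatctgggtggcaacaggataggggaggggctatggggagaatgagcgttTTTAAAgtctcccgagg
Over an alignment of the 250 bases before the start, the 6 pairs of these windows were 83.5% to 86.4% identical. TTTAAA stood 26, 42, 33 and 17 bases before the annotated start of Klk1b26, Klk1b5, Klk1b9 and Klk1b27. It was therefore present in called and uncalled members alike, and 3.18% of all 8718 autosomal windows of 120 bases hold it on either strand.

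Klk1b26 had levels of 9.35, 10.14 and 10.03 on shSLY arrays and of 7.94, 8.39, 7.52 and 7.32 on WT arrays. The log2 fold change was 2.04 ± 0.28 (SE, 4.12-fold, limma adjusted p = 0.000747), and it was 1.57 in replicates 1 and 2 (limma adjusted p = 0.0338). Klk1b5, the gene for another Klk1-like protease, had levels of 10.53, 10.48 and 10.43 on shSLY arrays and of 9.04, 9.64, 8.76 and 8.49 on WT arrays (2.82-fold, limma adjusted p = 0.0025). The groups did not overlap for either gene, and the WT arrays of the first set were the higher WT arrays. Klk1, tissue kallikrein itself, had levels of 8.48, 8.34 and 8.67 on shSLY arrays and of 7.21, 7.86, 6.88 and 6.74 on WT arrays (2.51-fold, limma adjusted p = 0.0102). Klk1b9 had levels of 10.39, 10.45 and 9.99 on shSLY arrays and of 9.19, 9.61, 8.60 and 8.65 on WT arrays (2.4-fold, limma adjusted p = 0.00634). Of the 4, Klk1b26 and Klk1b9 were also called in replicates 1 and 2, and all 4 calls held without each array in turn. Under median scaling Klk1b26 alone was called.

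The uncalled kallikreins had smaller differences. Their log2 fold changes were 0.69 for Klk1b16, 0.42 for Klk1b8, 0.41 for Klk1b1, 0.33 for Klk1b21 and Klk1b24, and 0.09 for Klk1b27. Klk1b5, Klk1b9 and Klk1b26 had further kept probes, which gave log2 fold changes of 1.48 and 1.66 for Klk1b5, 1.53 for Klk1b9 and 2.92 for Klk1b26. The probe sequences were not analysed here, so the share of each probe's signal that comes from other members of the cluster is unknown.

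The Speer genes encode glutamate-rich proteins of spermatids and lie mainly in copies on chromosome 5. Of 9 members tested, 3 were called higher and none lower, beside 0.903% called higher over all autosomal genes tested. Of the 9, 8 had a higher mean in shSLY, and the median log2 fold change was 0.70. Among these members, only the windows before the start of Speer4a and Speer4e were compared, and they are nearly the same sequence where they align. Those of Speer4a (chr5:26039506-26039625) and Speer4e (chr5:14938476-14938595, both minus strand) are shown for this likeness, and capitals mark TGACATCA and its reverse complement TGATGTCA.
Speer4a: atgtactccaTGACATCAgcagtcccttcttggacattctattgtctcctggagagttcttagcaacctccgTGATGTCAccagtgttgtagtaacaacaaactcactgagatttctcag
Speer4e: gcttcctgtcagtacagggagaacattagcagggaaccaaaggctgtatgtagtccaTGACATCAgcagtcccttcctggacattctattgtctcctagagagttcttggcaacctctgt
Over 204 aligned bases of the 250 before the start, Speer4a and Speer4e were 95.1% identical. The windows of 250 bases of the called rises Gm10471 and Gm7361, unnamed genes near Speer4a on chromosome 5 that lost their calls with the replicate block (limma adjusted p = 0.157 and 0.135), were 93.0% to 95.0% identical to them. TGACATCA occurred on either strand within 250 bases before the start of 7 of the 74 rises with a window (9.46%), of none of the 58 falls with a window, and of 2.52% of all 8718 windows. The 7 genes were Speer4a, Speer4e, Gm10471, Gm7361, Gm5592, Gm5800 and Asb2, 4 of which hold the nearly identical windows of chromosome 5. The motif was searched after these windows had been seen and says nothing of a factor that binds it.

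Speer4a had levels of 10.96, 10.52 and 10.50 on shSLY arrays and of 10.04, 10.06, 9.69 and 9.61 on WT arrays (1.75-fold, limma adjusted p = 0.016). Speer4e had levels of 10.66, 10.19 and 10.03 on shSLY arrays and of 9.73, 9.69, 9.03 and 8.97 on WT arrays (1.92-fold, limma adjusted p = 0.0255). Speer4cos had levels of 6.27, 5.94 and 6.54 on shSLY arrays and of 5.57, 5.07, 4.77 and 4.66 on WT arrays (2.35-fold, limma adjusted p = 0.0102). It was detected on 2 of the 4 WT arrays, so its fold rests partly on signals not above background. In each of the 3 genes both arrays of WT 1 and 2 lay above both of WT 3 and 4. None of the 3 was called in replicates 1 and 2, where their log2 fold changes were 0.69, 0.72 and 0.79. With the replicate block, Speer4cos kept its call (limma adjusted p = 0.0392) and Speer4a and Speer4e lost theirs (0.0721 and 0.0678). Without WT 3, WT 4 or shSLY 1 in turn, 1 member remained called. Speer4d was not called despite a log2 fold change of 1.497 (limma adjusted p = 0.114). Its WT arrays ranged widely, with WT 1 at 7.73 next to shSLY 1 at 7.75 and WT 4 at 5.50. Speer2 had a log2 fold change of -0.13. As for the kallikreins, the share of each probe's signal that comes from other Speer copies is unknown.

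Of the replication-dependent histone H3 genes, some rose in shSLY spermatids. These genes package newly made DNA in dividing cells and their mRNAs end in a stem-loop in place of a poly(A) tail. Of 8 members tested, 4 were called higher and none lower, with a median log2 fold change of 0.59. The arrays did not overlap, with shSLY higher, for 7 of the 8. Over all autosomal genes tested, these shares were 0.903% and 6.89%. The probe sequences were not analysed here, so how far the 4 calls are separate measurements of these related copies is unknown. The 4 called members, H3c1, H3c4, H3c6 and H3c7, lie in the histone cluster of chromosome 13. The windows of 120 bases before H3c4 (chr13:23575643-23575762, plus strand) and H3c6 (chr13:23562386-23562505, minus strand) are shown as those of the members with a RefSeq promoter entry, with CCAAT, a box typical of histone promoters, in capitals.
H3c4: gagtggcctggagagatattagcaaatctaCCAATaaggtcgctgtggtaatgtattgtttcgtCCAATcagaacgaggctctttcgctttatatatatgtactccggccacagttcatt
H3c6: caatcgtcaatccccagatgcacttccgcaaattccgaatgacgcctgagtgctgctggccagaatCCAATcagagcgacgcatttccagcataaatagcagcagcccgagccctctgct
CCAAT occurred on either strand in 25.1% of all 8718 windows of this length, so its presence does not set these genes apart.

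H3c6 had levels of 10.61, 10.68 and 10.81 on shSLY arrays and of 9.87, 10.14, 9.99 and 10.05 on WT arrays (log2 fold change 0.69, limma adjusted p = 0.00665). H3c1 had levels of 9.98, 10.03 and 10.01 on shSLY arrays and of 9.29, 9.29, 9.27 and 9.20 on WT arrays (0.74, limma adjusted p = 0.00806). H3c4 was at 10.46, 10.53 and 10.78 on shSLY arrays and at 9.89, 9.90, 9.89 and 9.86 on WT arrays (0.70, limma adjusted p = 0.019). Both sets of WT arrays were level for these genes, and the 3 shSLY arrays were all above them. H3c7 rose by the least, with a log2 fold change of 0.59 (limma adjusted p = 0.0365). None of the 4 was called in replicates 1 and 2, where that of H3c1 was 0.71 (limma adjusted p = 0.0658). With the replicate block H3c1 and H3c6 kept their calls (limma adjusted p = 0.0394 and 0.0311) while H3c4 and H3c7 did not (0.0815 and 0.0933). Without WT 3, without WT 4 or without shSLY 2, 2 members remained called, and under median scaling none was. Of 35 other replication-dependent histone genes, 29 had a higher mean in shSLY and 1, H2bc21, was called (log2 fold change 0.65), with a median of 0.31. H3f3b, which encodes the replacement histone H3.3, rose by 0.61 on the log2 scale. Both H2bc21 and H3f3b lost their calls with the replicate block (limma adjusted p = 0.108 and 0.104).

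Immediate early response genes, whose transcription starts within minutes of a stimulus, were another group of rises. Of 15 members tested, 5 were called higher and none lower, and the median log2 fold change was 0.60. The share called higher over all autosomal genes tested was 0.903%. Cebpb, a leucine zipper transcription factor, was at 6.78, 6.16 and 6.58 on shSLY arrays and at 5.28, 5.53, 4.72 and 5.03 on WT arrays (2.58-fold, limma adjusted p = 0.00519). Zfp36, which encodes an mRNA-destabilising protein, was at 7.09, 7.003 and 7.69 on shSLY arrays and at 6.197, 6.16, 5.91 and 5.88 on WT arrays (2.34-fold, limma adjusted p = 0.00474). Both calls held without each array in turn. Egr1, a zinc finger transcription factor, was at 8.67, 8.42 and 9.57 on shSLY arrays and at 7.84, 7.85, 7.49 and 7.61 on WT arrays (2.28-fold, limma adjusted p = 0.0157). Fosb, a subunit of the AP-1 transcription factor, was at 6.46, 6.31 and 7.59 on shSLY arrays and at 5.47, 5.68, 5.23 and 5.52 on WT arrays (2.48-fold, limma adjusted p = 0.0216). shSLY 3 stood highest for Fosb, Egr1, Zfp36 and Junb. Its position was most marked for the uncalled Fos, which was at 7.76, 7.56 and 9.65 on shSLY arrays and at 6.70, 6.93, 6.45 and 6.71 on WT arrays (log2 fold change 1.62, limma adjusted p = 0.064).

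The calls of this group depended on the arrays. Without shSLY 3 the log2 fold change of Fosb was 0.91 (limma adjusted p = 0.0707), and without WT 3 or WT 4 only 2 of the 5 remained called. With the replicate block, Egr1 (limma adjusted p = 0.0536) and Junb (0.11) lost their calls. No member was called in replicates 1 and 2, where the median over the 15 was 0.40 and Fosb had a log2 fold change of 0.81 (limma adjusted p = 0.0513). The median of macrophage markers was also the highest on shSLY 3 among shSLY arrays (0.59). So was that of the 5 Leydig cell markers tested, at 0.07, 0.19 and 0.41 on shSLY arrays and 0.08, -0.05, -0.002 and 0.08 on WT arrays. Of these 5, Insl3 had a log2 fold change of 1.28 (limma adjusted p = 0.0673), Cyp17a1 one of 0.52 and Cyb5a one of 0.17. Cyp11a1 and Ptgds had a lower mean in shSLY (-0.05 and -0.08), and none of the 5 was called. The medians of pachytene spermatocyte and neutrophil markers were likewise highest on shSLY 3. Those of spermatogonium, Sertoli cell, peritubular myoid cell, endothelial cell and red blood cell markers were instead lowest there among shSLY arrays. The part of other cells in these rises was not tested.

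**Figure D3:**
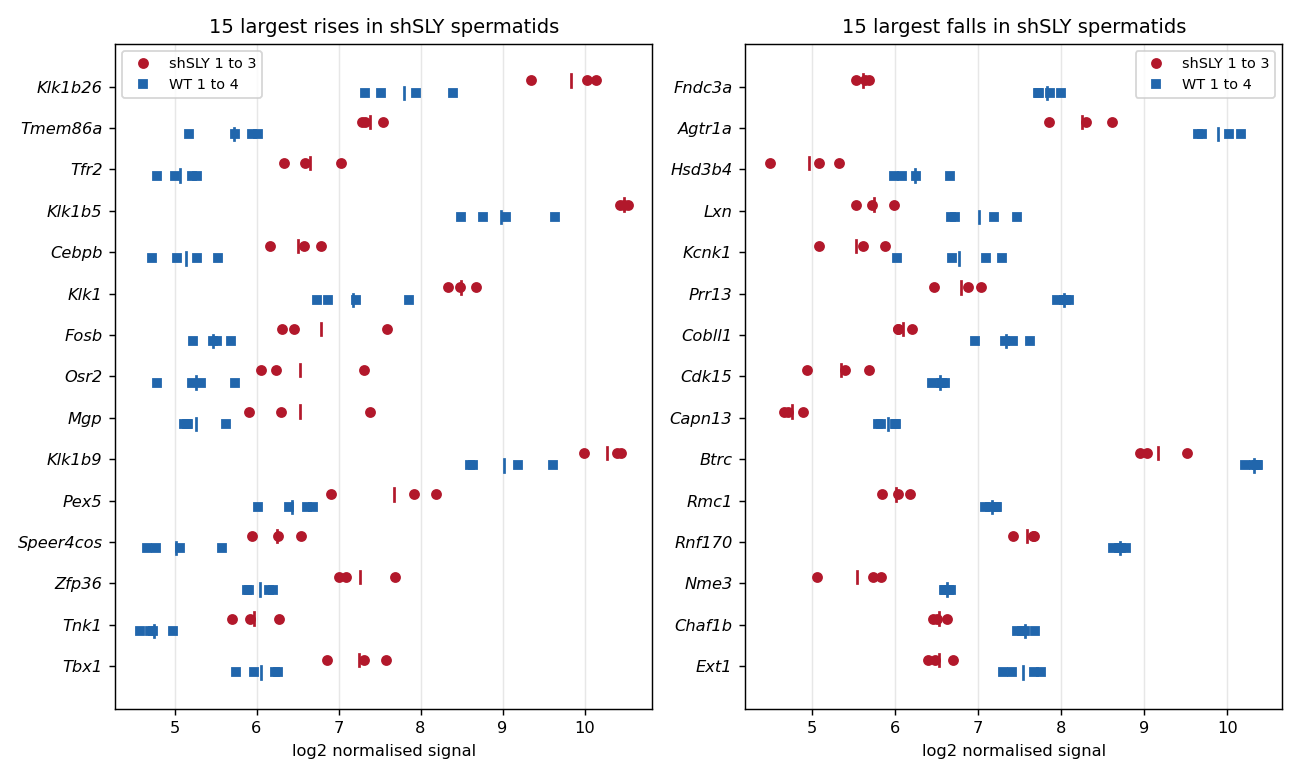
Log2 normalised signal of the 15 largest rises (left) and the 15 largest falls (right) among called autosomal genes with a usual symbol, with a circle for each shSLY array, a square for each WT array and a vertical bar at each group mean. The groups do not overlap in any row, and shSLY 3 lies apart from shSLY 1 and 2 for Fosb, Osr2 and Mgp.

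Other rises included genes of lipid, iron and mRNA metabolism. Tmem86a, a lysoplasmalogenase that cleaves ether lipids, was at 7.29, 7.54 and 7.33 on shSLY arrays and at 5.95, 6.01, 5.18 and 5.74 on WT arrays (3.17-fold, limma adjusted p = 0.000347). Tfr2, a receptor for iron-loaded transferrin, was at 7.03, 6.59 and 6.34 on shSLY arrays and at 5.22, 5.27, 4.79 and 5.01 on WT arrays (2.99-fold, limma adjusted p = 0.000425). Btg4, an adaptor of the deadenylase complex that is known for the clearance of maternal mRNA in oocytes, was at 10.20, 10.10 and 10.12 on shSLY arrays and at 9.05, 9.16, 8.83 and 8.81 on WT arrays (2.26-fold, limma adjusted p = 0.000747). Each was also called in replicates 1 and 2, with log2 fold changes of 1.43, 1.57 and 1.05. Under median scaling Tmem86a and Tfr2 remained called and Btg4 did not. Tfr2 was the only called member of the 11 iron uptake and storage genes tested, whose median was 0.27, and Btg4 the only one of the 21 mRNA storage and delayed translation genes tested, whose median was -0.07.

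Peroxisome biogenesis genes, a list drawn up after their values were seen, had 2 calls among 13 tested, both higher. The share called higher over all autosomal genes tested was 0.903%. Pex5, the receptor that brings matrix enzymes into the organelle, was at 7.92, 8.18 and 6.91 on shSLY arrays and at 6.68, 6.61, 6.02 and 6.39 on WT arrays (2.37-fold, limma adjusted p = 0.0125). The brighter 3 of its 4 kept probes gave 1.24, 1.12 and 0.76, while the dimmest gave -0.35. The call was lost without shSLY 1 (1.12, limma adjusted p = 0.079) or without shSLY 2 (0.99, 0.0673). Pex10, a ubiquitin ligase of the peroxisome membrane, rose by 0.76, was detected on 1 WT array, and lost its call without each of the 7 arrays in turn and with the replicate block (limma adjusted p = 0.108). Hsd17b4, an enzyme of peroxisomal fatty acid oxidation, fell by 0.59 on the log2 scale (limma adjusted p = 0.0198, and 0.0577 with the replicate block).

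The rises also held single genes of secreted proteins. Eppin, a protease inhibitor of the male tract that coats sperm, was at 10.19, 10.16 and 9.85 on shSLY arrays and at 9.20, 9.17, 8.67 and 9.08 on WT arrays (2.05-fold, limma adjusted p = 0.00353), and its call held in replicates 1 and 2. Spink4, another protease inhibitor, rose by 0.88 (limma adjusted p = 0.046), and these were the 2 calls among 34 secreted protease inhibitor genes tested, whose median was 0.15. Lcn2, a lipocalin that binds bacterial iron carriers, was at 6.404, 6.17 and 6.34 on shSLY arrays and at 5.31, 5.34, 5.24 and 5.36 on WT arrays (1.98-fold, limma adjusted p = 0.00108), and was called in replicates 1 and 2 as well. Bmp7, a growth factor of the TGF-beta family, rose by 0.88 on the log2 scale (limma adjusted p = 0.0216). The matrix genes showed no common direction, with Col23a1 (0.86) and Col4a2 (0.70) called higher and Col8a1 (-0.89) called lower among 33 tested. With the replicate block Col4a2 and Col8a1 lost their calls (limma adjusted p = 0.127 and 0.0615). Mgp, an inhibitor of matrix calcification, was at 5.91, 6.30 and 7.39 on shSLY arrays and at 5.16, 5.62, 5.12 and 5.17 on WT arrays (limma adjusted p = 0.0393, and 0.12 with the replicate block).

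Signalling and transcription genes were also among the rises. Tnk1, a nonreceptor tyrosine kinase, was at 6.28, 5.92 and 5.70 on shSLY arrays and at 4.98, 4.70, 4.74 and 4.57 on WT arrays (limma adjusted p = 0.000511), and was detected on 1 WT array. Tbx1, a T-box transcription factor of the pharynx and heart, was at 7.31, 6.86 and 7.57 on shSLY arrays and at 6.26, 6.23, 5.97 and 5.75 on WT arrays (2.29-fold, limma adjusted p = 0.0134, and 0.0772 with the replicate block), and its call was lost without WT 4, shSLY 1 or shSLY 3. Osr2, a zinc finger transcription factor of palate and tooth, was at 6.24, 6.05 and 7.32 on shSLY arrays and at 5.32, 5.73, 4.79 and 5.21 on WT arrays (limma adjusted p = 0.0314, and 0.121 with the replicate block). shSLY 3 was again the highest shSLY array for both. The collapsin response mediators Crmp1 and Dpysl2, which link semaphorin signals to microtubules, rose by 1.03 and 0.77 among 5 family members tested. Both were called, beside 0.903% called higher over all autosomal genes tested. With the replicate block neither was called (limma adjusted p = 0.104 and 0.132). Crmp1 was detected on 2 of the 4 WT arrays. Some genes known from immune cells, picked after their values were seen, were called in either direction. Ccl4, a macrophage chemokine, had a log2 fold change of 1.15, Ifitm3, an antiviral membrane protein, one of 1.04, Nfatc2, a transcription factor of T cells, one of 1.11, and Cyba, a subunit of the phagocyte oxidase, one of 1.02. Ccl4 and Nfatc2 were detected on 1 of the 4 WT arrays and Ifitm3 and Cyba on 2, so these values rest partly on signals not above background. In replicates 1 and 2 these genes had log2 fold changes of 0.67, 0.36, 0.81 and 0.68 and none was called, and none was called with the replicate block (limma adjusted p = 0.0977, 0.136, 0.0896 and 0.0896). Chil4, a chitinase-like protein, was called lower (-0.90, limma adjusted p = 0.00351). The macrophage markers given above had a higher mean in shSLY over the 7 arrays, and their part was not tested.

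The largest fall was that of Fndc3a, a gene that the mouse needs for the adhesion between spermatids and Sertoli cells. It was at 5.53, 5.63 and 5.68 on shSLY arrays and at 7.73, 8.00, 7.86 and 7.72 on WT arrays. The log2 fold change was -2.22 ± 0.16 (SE, 4.65-fold lower, limma adjusted p = 6.78e-06) and it was -2.29 in replicates 1 and 2 (limma adjusted p = 0.00105). Both groups were narrow and far apart, and both sets of WT arrays were level. Fndc3a lies at chr14:72537948-72710701 (GRCm38.p6). Its other kept probe, with a mean level of 4.74, gave -0.03, so the fall was seen by the brighter of its 2 probes. It was the only call among 12 Sertoli-spermatid adhesion genes tested, of which 9 had a higher mean in shSLY, with a median of 0.27.

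Agtr1a, a receptor for angiotensin II, was at 7.85, 8.30 and 8.61 on shSLY arrays and at 9.70, 9.65, 10.16 and 10.02 on WT arrays (3.09-fold lower, limma adjusted p = 0.000506). The fall was of the same size in replicates 1 and 2, with a log2 fold change of -1.60. It was the only call among 3 renin-angiotensin genes tested, which all had lower means in shSLY. Kcnk1, a potassium channel that conducts at rest, was at 5.88, 5.09 and 5.61 on shSLY arrays and at 6.02, 6.68, 7.09 and 7.28 on WT arrays (2.37-fold lower, limma adjusted p = 0.0212). Its nearest arrays, shSLY 1 and WT 1, were 5.88 and 6.02, and its call was lost with the replicate block (0.0578) and without WT 3, WT 4 or shSLY 2.

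Single genes of the ubiquitin system were among the falls. Btrc encodes beta-TrCP, the F-box protein that brings beta-catenin and other phosphorylated proteins to a cullin ligase. It was at 8.94, 9.03 and 9.52 on shSLY arrays and at 10.36, 10.21, 10.37 and 10.33 on WT arrays (2.22-fold lower, limma adjusted p = 0.00109). Rnf170, a ubiquitin ligase of the endoplasmic reticulum that acts on IP3 receptors, was at 7.42, 7.67 and 7.68 on shSLY arrays and at 8.62, 8.78, 8.72 and 8.70 on WT arrays (2.17-fold lower, limma adjusted p = 0.000318). A further Rnf170 probe gave -1.07 and a dim one gave -0.24. Ufc1, which conjugates the ubiquitin-like protein UFM1, was at 8.36, 8.34 and 8.41 on shSLY arrays and at 9.26, 9.24, 9.002 and 9.15 on WT arrays (1.74-fold lower, limma adjusted p = 0.00975). All 3 were also called lower in replicates 1 and 2, and with the replicate block. Their families as a whole did not move one way. Over all autosomal genes tested, 0.772% were called lower and 1.68% in either direction. Of 55 RING finger genes 1 was called, of 26 ubiquitin-conjugating enzymes 1, and of 34 ubiquitin-specific proteases 1, the histone deubiquitinase Usp3, which was higher (0.93, limma adjusted p = 0.0157, and 0.0578 with the replicate block). Of 80 substrate adaptors of cullin ligases, 3 were lower (Btrc, Klhl9 at -0.74 and Fbxo4 at -0.71) and 3 higher (Socs6 at 0.87, Asb2 at 0.84 and Wsb2 at 0.81), and with the replicate block Klhl9, Fbxo4 and Socs6 lost their calls (limma adjusted p = 0.0946, 0.0876 and 0.0898). Asb2 and Socs6 were each detected on 1 of the 4 WT arrays. None of the 32 proteasome subunit genes was called.

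Falls in chromatin and transcription genes were led by Chaf1b and Esrrb. Chaf1b, a subunit of the CAF-1 chaperone that deposits histone H3 and H4 on replicating DNA, was at 6.50, 6.63 and 6.45 on shSLY arrays and at 7.57, 7.47, 7.68 and 7.53 on WT arrays (2.05-fold lower, limma adjusted p = 0.000756). Esrrb, an orphan nuclear receptor of stem cells and germ cells, was at 7.001, 6.81 and 7.26 on shSLY arrays and at 8.16, 8.25, 7.69 and 7.91 on WT arrays (1.97-fold lower, limma adjusted p = 0.00653). Kmt5a, which methylates a lysine of histone H4, fell by 0.72 on the log2 scale (limma adjusted p = 0.0118, and 0.0629 with the replicate block). Chaf1b was the only call among 12 H3K9 and heterochromatin factors tested, whose median was 0.01. Esrrb (lower) and Tbx1 (higher) were the calls among 20 postmeiotic transcription regulators.

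Among genes of cell signalling and shape, Prr13, a regulator of thrombospondin expression, was at 6.46, 6.88 and 7.03 on shSLY arrays and at 8.04, 7.95, 8.05 and 8.10 on WT arrays (2.37-fold lower, limma adjusted p = 0.000846). Cdk15, a cyclin-dependent kinase, was at 5.69, 5.40 and 4.94 on shSLY arrays and at 6.44, 6.56, 6.60 and 6.55 on WT arrays (2.29-fold lower, limma adjusted p = 0.00108). Both were also called in replicates 1 and 2. Nme3, a nucleoside diphosphate kinase, fell by 1.08 and the actin-binding Cobll1 by 1.24 on the log2 scale. Lxn, an inhibitor of carboxypeptidases, was at 5.53, 5.72 and 5.99 on shSLY arrays and at 6.67, 6.72, 7.47 and 7.19 on WT arrays (limma adjusted p = 0.00757, and 0.0505 without shSLY 1). Capn13, a calpain protease, was not above background on any shSLY array and was detected on all 4 WT arrays. It was at least 2.09-fold lower in shSLY (limma adjusted p = 0.00235), taking as a bound for each shSLY array the higher of its dimmest detected signal and the probe's own.

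Npc1, the lysosomal protein that exports cholesterol, was at 5.96, 6.07 and 6.21 on shSLY arrays and at 7.09, 6.90, 6.92 and 6.81 on WT arrays (1.8-fold lower, limma adjusted p = 0.00479). Its neighbour on chromosome 18, Rmc1, a subunit of the complex that activates Rab7 on late endosomes, was at 6.03, 6.18 and 5.84 on shSLY arrays and at 7.22, 7.15, 7.22 and 7.08 on WT arrays (limma adjusted p = 0.000474). The annotated ends of these genes overlap, from 12189694 to 12198675, and the arrays' probes were not placed within them here. Hsd3b4, a hydroxysteroid dehydrogenase, was at 5.08, 5.32 and 4.49 on shSLY arrays and at 6.08, 5.98, 6.66 and 6.25 on WT arrays (2.43-fold lower, limma adjusted p = 0.00234). In replicates 1 and 2 its log2 fold change was -0.83 (limma adjusted p = 0.05004), just short of a call, whereas Npc1 and Rmc1 were called there. Hsd3b4 was the only call among 4 steroid synthesis genes tested, of which 2 had a higher and 2 a lower mean in shSLY, with a median of 0.08.

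Heparan sulfate synthesis, again listed after the values were seen, had 3 falls among 13 genes tested, with a median log2 fold change of -0.25. The share called lower over all autosomal genes tested was 0.772%. Ext1, a subunit of the polymerase that builds the chain, was at 6.401, 6.48 and 6.70 on shSLY arrays and at 7.31, 7.41, 7.68 and 7.75 on WT arrays (2.01-fold lower, limma adjusted p = 0.00235). The sulfotransferases Ndst2 and Hs3st3b1 fell by 0.69 and 0.60 on the log2 scale (limma adjusted p = 0.0298 and 0.0457). Ext1 and Ndst2 were also called in replicates 1 and 2, whereas with the replicate block only Ext1 was (0.0815 for Ndst2 and 0.0987 for Hs3st3b1). The 3 genes lie on different chromosomes.

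Of 32 genes of tRNA processing and modification, listed in the same way, 3 fell and none rose, with a median of -0.04. Over all autosomal genes tested, 0.772% were called lower. Rpp21, a protein of ribonuclease P, which removes the leader of precursor tRNAs, was at 10.14, 10.25 and 10.01 on shSLY arrays and at 11.16, 11.08, 10.97 and 10.95 on WT arrays (1.87-fold lower, limma adjusted p = 0.000572). Trpt1, a tRNA phosphotransferase, fell by 0.71 and Dtwd1, a tRNA-modifying enzyme, by 0.62 on the log2 scale, and both lost their calls with the replicate block (limma adjusted p = 0.0717 and 0.0923). Rplp1, a protein of the ribosomal stalk, was at 12.64, 12.95 and 12.74 on shSLY arrays and at 13.73, 13.67, 13.39 and 13.38 on WT arrays (1.7-fold lower, limma adjusted p = 0.00405), and it was the only call among 52 cytosolic ribosomal protein genes. Mrpl34 was the only call among 67 mitochondrial ribosomal protein genes and was higher (0.82). Of 185 solute carrier genes, 4 fell and none rose, beside the same share of 0.772% over all autosomal genes tested. They were the zinc transporter Slc39a12 (-0.70), Slc35a5 (-0.72), Slc7a4 (-0.67) and the mitochondrial dicarboxylate carrier Slc25a10 (-0.66). Of these, only Slc39a12 was called in replicates 1 and 2, and with the replicate block none was (limma adjusted p = 0.0894, 0.109, 0.133 and 0.0738).

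**Figure D4:**
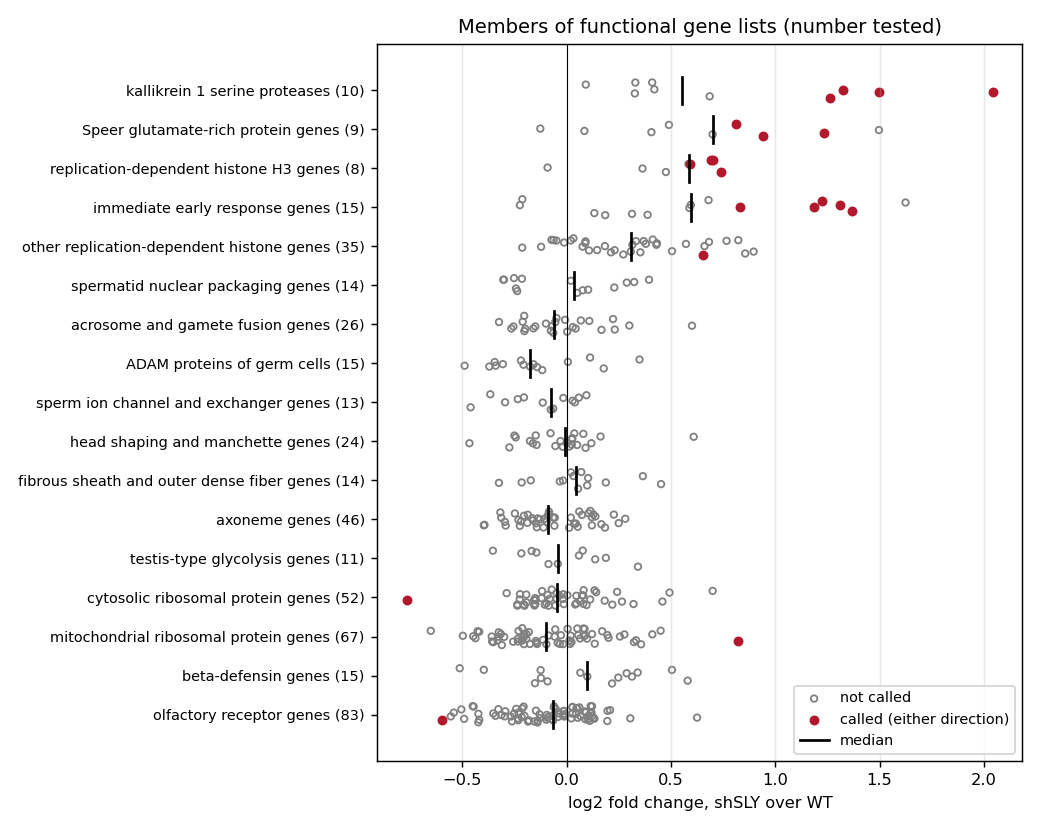
Log2 fold change (shSLY over WT) of each tested member of the functional gene lists named on the vertical axis, with filled symbols for called members, open symbols for the others, a black bar at each median and the number tested in brackets. The medians of the upper 4 lists lie between 0.55 and 0.70, while those of the lists for the acrosome, ADAM proteins, ion channels, axoneme and nuclear packaging lie between -0.17 and 0.04.

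The lists of genes that build the sperm held no call, beside 1.68% called in either direction over all autosomal genes tested. By that share alone, lists of these sizes would hold few calls, so the absence does not set them apart. None of 26 acrosome and gamete fusion genes (median log2 fold change -0.06), 15 germ cell ADAM genes (-0.17), 13 sperm ion channel genes (-0.08), 24 head shaping and manchette genes (-0.01), 14 fibrous sheath and outer dense fiber genes (0.04) or 46 axoneme genes (-0.09) was called. The member with the smallest adjusted p was Adam29, a membrane protein of sperm, whose log2 fold change of -0.49 was also under the fold threshold (limma adjusted p = 0.0511). Outside these lists, Efcab1, a calcium-binding protein of the outer dynein arm, was called higher (0.79, limma adjusted p = 0.028, and 0.0872 with the replicate block). The 14 spermatid nuclear packaging genes, which include protamines and transition proteins, had a median of 0.04. Acrv1, an acrosomal protein, had a log2 fold change of -0.06 and Dkkl1, which is also of the acrosome, one of -0.20, and neither was called. None of 17 piRNA and chromatoid body genes, 68 oxidative phosphorylation subunit genes, 55 heat shock and DnaJ chaperones or 11 Bcl2 family genes was called either. The same share applies to these lists. The number of arrays limits the size of change that can be called, so a change near 1.5-fold in single genes of these lists may not be detectable.

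Pachytene spermatocyte markers, which show carry-over of meiotic cells, had medians relative to the WT mean of -0.03, -0.21 and 0.41 on shSLY arrays and of -0.22, -0.13, 0.15 and 0.17 on WT arrays. One of the 10 tested, Msh5, a meiotic recombination gene, was called higher, at 6.47, 6.10 and 6.74 on shSLY arrays and 5.87, 5.55, 5.47 and 5.71 on WT arrays (limma adjusted p = 0.0475). The call remained for only 1 of the 7 arrays left out in turn, and Msh5 was not called in replicates 1 and 2 or with the replicate block (limma adjusted p = 0.0994). shSLY 3 was the highest array for the marker list and for Msh5 alike.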

How the data were processed

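RNA of round spermatid preparations was hybridised as biotin-labelled cRNA to Illumina mouse whole-genome BeadChip arrays (v2). The intensities deposited by the authors are linear bead means of each probe, without normalisation or subtraction of background. With each intensity the authors gave a detection p-value, and a separate table of theirs holds normalised intensities, which served here only as an alternative. GenomeStudio 2011.1 (submitters' processing notes) and BeadStudio (the paper) are the programs named, and no source used here states their settings. Groups and replicate numbers follow the sample labels.

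The intensities were processed with neqc of limma 3.58.1 in R 4.3.3 (offset of 16, negative controls inferred from the detection p-values). 1 mean per group was fitted over all 13 arrays, with 9 residual degrees of freedom and a prior of 5.64, and replicates 1 and 2 were compared in a fit with 1 mean per group and array set. A single gene name was available for 34885 probes, while 10378 had none and 18 had several. Chromosomes, gene positions and sequences come from RefSeq GRCm38.p6. A promoter window was matched for 8718 of 10745 autosomal genes, for 74 of the 97 rises and for 58 of the 83 falls. Windows were compared by alignment without penalty for end gaps. The number of arrays limits the precision of every value.

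The members and gene lists were chosen with earlier results of these data known. Named genes were the 15 largest rises and 15 largest falls with a usual symbol and no overlap between groups, called members of functional lists (all in lists of 12 or fewer, otherwise the 4 with the smallest adjusted p), the nearest members of lists with no call, and genes the study names. Genes named outside this rule, and the lists for peroxisomes, collapsin response mediators, cullin adaptors, heparan sulfate, tRNA and clustered protocadherins, were chosen after their values were seen. In the last, 2 of 15 were higher (Pcdhb3 and Pcdhgb2) and 1 lower (Pcdha2), and none of the 3 was called with the replicate block (adjusted p = 0.0504, 0.0917 and 0.151).

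Same-numbered shSLY and WT arrays deviated from their group means together (r = 0.11, 0.25 and 0.25). Arrays of unlike number were not compared in this way, so whether the numbers pair the arrays is unknown. Any pairing rests on these correlations alone. Values fitted with the replicate number as a block are given where the call of a named gene changes. WT 4, the only array with that number, has no weight in the shSLY contrast of that fit. The fit was tested on simulated data for 14660 genes in shSLY against WT. Alternatives were the background correction, the scaling, the authors' values, the filter, the arrays fitted, blocks, array weights, the fold change threshold and leaving out each array. Columns of the other genotypes entered only the fit. matplotlib 3.10.9 (Python 3.11.15) drew the figures.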

Additional observations from a re-analysis of the deposited data

Results flagged for a closer look

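Of 66 named results checked among the 4 WT arrays, 2 had an array that stood apart from the others by Dixon's ratio, and chance alone flags about 1 in 20 such groups. Both were WT 2 and both were genes of the extracellular matrix. Col23a1 was at 7.78 on WT 2 and at 7.45 to 7.48 on the other WT arrays. Mgp was at 5.62 on WT 2 and at 5.12 to 5.17 on the other WT arrays. In each gene all 3 shSLY arrays lay above WT 2.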

How the results depend on the processing

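Of the 56 called genes that the rule named, none changed direction under any alternative, and 13 were called in every setting, replicates 1 and 2 included. They are Agtr1a, Btrc, Cdk15, Chaf1b, Esrrb, Ext1, Fndc3a, Klk1b26, Prr13, Rmc1, Rnf170, Tfr2 and Tmem86a. The number that kept their call was lowest in replicates 1 and 2 (25 of 56) and under median scaling (30 of 56). It was 36 of 56 with the replicate block and 48 of 56 with the array set as a block. At a detection p under 0.01 on all arrays it was 39 of the 39 tested. The uncalled Acrv1 turned to 0.037 with array quality weights and 0.0082 in replicates 1 and 2, and ranged from -0.14 to 0.016 when an array was left out, and Sly turned to -0.13 with the array set as a block and to -0.033 in replicates 1 and 2. The cause of these changes was not tested.

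The counts of 97 genes higher and 83 lower became 44 and 32 with normexp and an offset of 50, 41 and 28 with no background correction, 26 and 54 under median scaling, 40 and 27 in the authors' values, 59 and 61 with no filter, 37 and 47 with the replicate block and 175 and 203 with array quality weights. Median scaling moved the median log2 fold change of all genes to -0.08, against -0.02 after quantile normalisation. The array set as a block gave 87 higher and 97 lower. Leaving out 1 array gave 30 to 113 higher and 33 to 96 lower. The counts of 37 higher and 54 lower in replicates 1 and 2 became 107 and 152 when these 4 arrays were fitted alone, 135 and 164 when the replicate block was added to that fit, 33 and 91 under median scaling and 49 and 82 at a detection p under 0.01 on all arrays. Leaving out 1 of the 4 arrays gave 0 to 19 higher and 1 to 20 lower, the lone array of a genotype being taken to vary like the other groups, and the lowest were 0 and 1 without WT 1.

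Of the kallikreins, 4 were called, against 1 under median scaling and 2 in replicates 1 and 2, and 4 without each array in turn. Of the Speer genes, 3 were called, against 1 under median scaling, 1 with the replicate block and 0 in replicates 1 and 2, with 1 to 4 when an array was left out. Of the histone H3 genes, 4 were called, against 0 under median scaling, 2 with the replicate block and 0 in replicates 1 and 2, with 2 to 3 when an array was left out. Of the immediate early genes, 5 were called, against 3 with the replicate block and 0 in replicates 1 and 2, with 2 to 5 when an array was left out. The counts of these lists in replicates 1 and 2 were added after seeing the data. Dim genes limit what can be seen. The mean WT level was under 6 (log2) for 44 of the 97 rises and 14 of the 83 falls. Of the called genes, 3 rises were detected on no WT array (Pmp22, Ctsa and Il16). Another 4 falls were detected on no shSLY array (Olfr301, 2510002D24Rik, Sult6b1 and Capn13). Their calls rest on estimates from signals not above background. With the bound used for Capn13, the changes were at least 1.25-fold for Pmp22, 1.19-fold for Ctsa, 1.17-fold for Il16 and 1.19-fold for Olfr301. These bounds lie under the 1.5-fold threshold of a call, while that of Capn13 (2.09-fold) lies above it.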
